A study of Mus musculus with 8 samples.

Results

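*Trps1*, 1 of 46517 genes listed in the bulk RNAseq files and 1 of 24051 listed in the matrices of nuclei, was followed through every deposited cell type of the adult mouse hippocampus and through single nuclei. It was chosen by its level in excitatory nuclei, mutant against control, in the same snRNAseq data. Its values in nuclei by genotype are therefore given as a description with no test, and only the bulk libraries, which that choice did not use, were tested. Each library came from both hippocampi of 1 mouse at 12 weeks of age. For each assay there were 2 mutant mice (Gfap-Cre;Wlsfl/-) and 2 control mice (Gfap-Cre;Wlsfl/+), so all 8 samples carried the Cre recombinase, which is driven by the *Gfap* promoter in neural progenitors and astrocytes, and a floxed copy of *Wls*. *Wls* encodes a membrane protein that cells need to secrete Wnt ligands. Recombined cells of the mutant had no working copy and those of the control kept the other copy.

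*Trps1* encodes a zinc finger transcription factor with a GATA-type DNA binding domain and Ikaros-type zinc fingers at its C-terminus. It is known mainly as a repressor of transcription, and human mutations in it cause tricho-rhino-phalangeal syndrome, with defects of hair, face and digits. It works in part through chromatin-modifying corepressors of the NuRD family. In mm10 the gene lies on the minus strand at chr15:50654752-50890463 and spans 235712 bases. The annotation gives it 8 transcripts, all with a coding region. Their exons cover 13380 bases, or 5.68% of the gene, so most of its pre-mRNA is intron. The nuclei were counted against a pre-mRNA index, in which intronic reads count, whereas the bulk counts rest on spliced transcripts. The microRNA gene *Mir1907* (chr15:50889025-50889114) lies within *Trps1* on the same strand.

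The deleted gene was checked first. *Wls* was at 10.5 and 10.1 TPM (transcripts per 1000000) in the bulk control libraries and at 2.61 and 5.44 TPM in the mutants, and in nuclei at 20.7 and 27.4 against 6.96 and 11.7 UMIs per 1000000 UMIs (UPM, where a UMI is a tag that marks a single captured molecule). Both mutants were below both controls in each assay, as was the case for 25.4% of all genes tested in bulk. The edgeR test of the bulk libraries, described below, gave *Wls* an FDR of 0.117. The bulk libraries held 56002381 to 79576196 expected counts and the snRNAseq libraries 5304 to 10460 nuclei and 26307081 to 76486132 UMIs. Pairs of snRNAseq libraries shared 8 to 21 cell barcodes, at most 0.309% of a library. The methods describe male mice, but bulk replicate 2 of each genotype had *Xist* at 175 TPM (control) and 101.0 TPM (mutant) and *Ddx3y* at 0.3 and 0.17 TPM, against *Ddx3y* at 30.9 and 28.9 TPM in the other two. Each bulk genotype thus held 1 library of each pattern, and in all 4 snRNAseq libraries *Ddx3y* stood at 31.6 to 53.8 UPM.

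In bulk RNAseq *Trps1* was a gene of middling level, with 51.4% of the 20687 genes tested below its mean TPM. It stood at 11.92 and 11.88 TPM in the control libraries and at 9.55 and 8.44 TPM in the mutant libraries, from 2586 to 3449 expected counts a library. The means were 11.9 ± 0.0283 TPM (SD, n = 2) in the control and 8.995 ± 0.785 TPM (SD, n = 2) in the mutant. Both mutants lay below both controls, as was the case for 25.4% of all genes tested. The log2 fold change, mutant minus control, was -0.34 with a standard error of 0.0846, and 12.7% of the genes tested had a lower one. With an FDR of 0.135 in edgeR (quasi-likelihood test, p adjusted by Benjamini-Hochberg over every gene tested), *Trps1* was not called, since a call needed an FDR below 0.05 and a fold change above 3, the limits set in the study. These limits called 41 genes lower (0.198%) and 4 genes higher (0.0193%). In bulk tissue, fewer cells of a type and less RNA in each cell cannot be told apart. With 2 libraries per genotype, an exact two-sided permutation test of *Trps1* alone cannot go below p = 0.333.

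Of the 40 genes in 5 lists of *Trps1* relatives, partners and targets, 32 were expressed enough to be tested in bulk and 0 were called, by edgeR or by DESeq2. An unadjusted p under 0.05 was given by edgeR to 7 of them, 5 lower and 2 higher in the mutant, against 3889 of all 20687 genes. DESeq2 gave such a p to 8 of them, and its count over all genes was not made. None of the 32 had both such a p and a fold above 3 with either tool. The median log2 fold change of the 32 genes was -0.07, against 0.01 over all genes tested.

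Among the relatives of *Trps1* by structure, most GATA factors were too low in the hippocampus to be tested. Only *Gata2* of the 6 was tested, at 3.76 to 4.90 TPM and a log2 fold change of 0.14 (SE 0.161). Of the 5 Ikaros factors 4 were tested, with log2 fold changes of -0.17 to 0.05. *Ikzf5* and *Ikzf4* stood at 19.3 to 26.8 TPM and 9.15 to 12.97 TPM, and *Ikzf1* and *Ikzf2* at 1.17 to 2.21 TPM. The friends of GATA are cofactors that bind GATA factors. *Zfpm2* stood at 17.5 and 16.7 TPM in the controls and 10.4 and 9.28 TPM in the mutants. *Zfpm1* stood at 33.3 and 35.9 TPM in the controls and 40.0 and 46.3 TPM in the mutants. Their log2 fold changes were -0.71 (SE 0.0999, edgeR FDR 0.0517) and 0.33 (SE 0.0924, edgeR FDR 0.165). Neither was called. The genotypes did not overlap for either gene, as was so for 25.4% of genes on the lower side and 25.8% on the higher side.

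Of the 20 partners and corepressors all 20 were tested, with a median log2 fold change of -0.07 and 4 at an unadjusted p under 0.05. *Dynll1*, a dynein light chain that binds Trps1, was at 575 to 600 TPM in the 4 libraries, far above *Trps1* itself on this length-scaled measure. *Gatad2b*, a NuRD subunit, stood at 47.2 and 45.7 TPM in the controls against 35.4 and 37.0 TPM in the mutants (log2 fold change -0.24, edgeR FDR 0.0922). Its paralog *Gatad2a* stood at 12.5 and 12.2 TPM against 12.9 and 13.8 TPM (0.20, edgeR FDR 0.214). Neither was called. *Gli3*, a transcription factor of Hedgehog signalling that Trps1 binds, was low at 1.03 to 2.21 TPM, with a log2 fold change of -0.57 and an edgeR FDR of 0.299.

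Of 7 genes described as *Trps1* targets in other tissues 5 were tested. *Apcdd1*, an inhibitor of Wnt signalling at the cell surface, was the single gene of all 5 lists with an edgeR FDR below 0.05, which 250 of all 20687 genes tested had. It stood at 21.2 and 20.0 TPM in the controls and at 9.75 and 9.68 TPM in the mutants, with a log2 fold change of -0.95 (SE 0.0897, edgeR FDR 0.0244). It did not reach a fold of 3. The Wnt antagonist *Wif1* was at 0.53 to 0.98 TPM, and the cartilage and glial regulator *Sox9* at 16.4 to 26.2 TPM with overlapping genotypes. Of the 7 protein-coding genes within 2 Mb of *Trps1* on chromosome 15, 6 were tested and 0 were called by edgeR or DESeq2. An unadjusted p under 0.05 was given to 0 by edgeR and to 1 by DESeq2, whose count over all genes was not made. The log2 fold changes of the 6 ran from -0.36 for *Csmd3*, a large transmembrane protein gene, to 0.26 for *Med30*, a Mediator subunit.

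**Figure D1:**
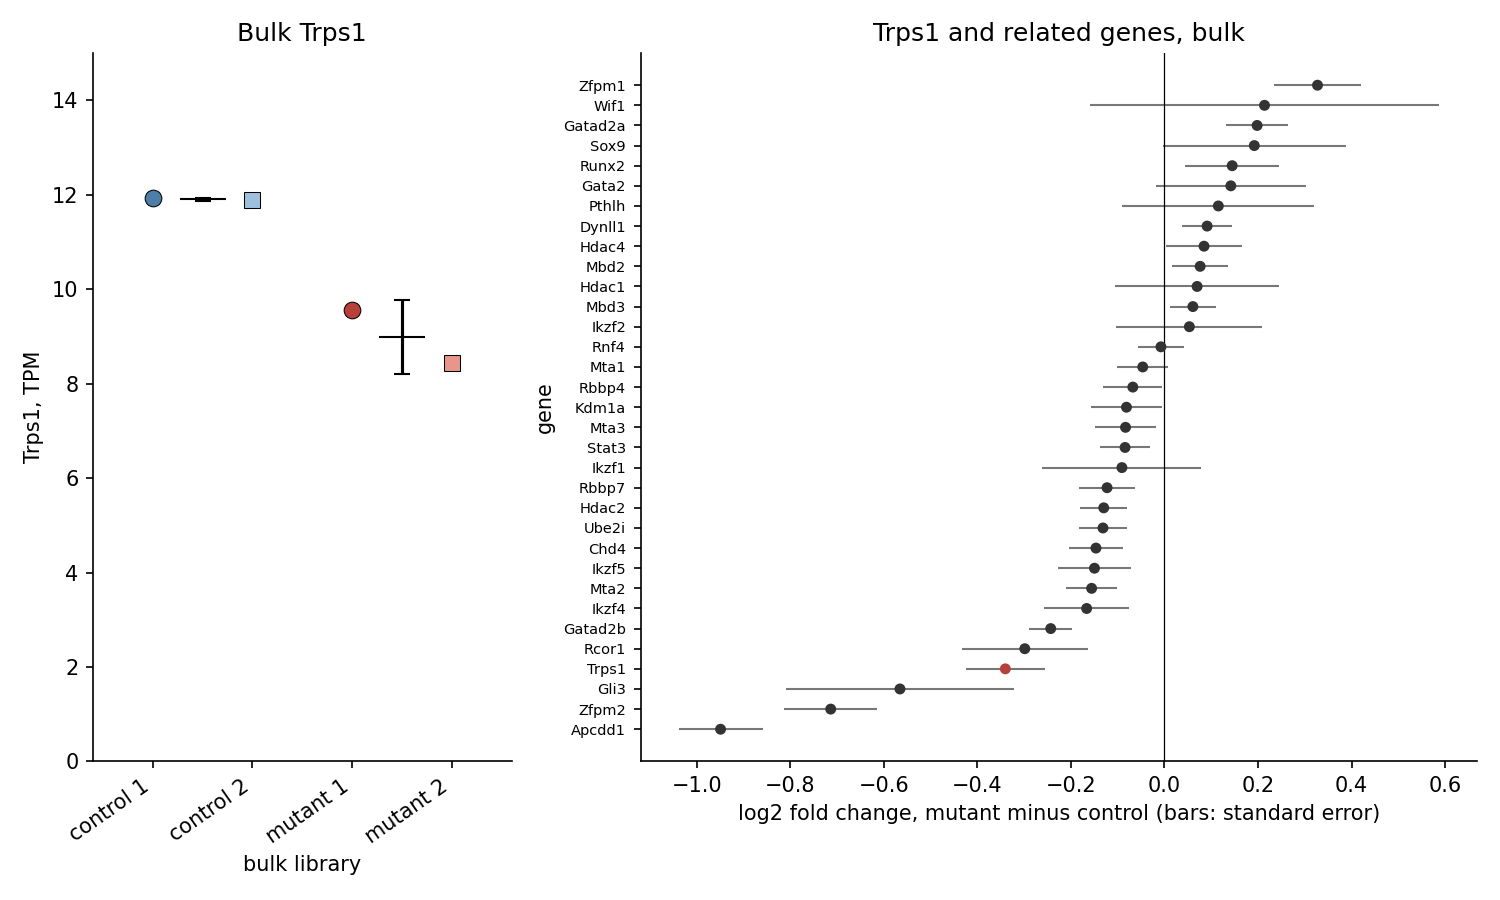
*Trps1* in bulk RNAseq. The left panel gives TPM in each of the 4 libraries with the mean and SD (n = 2) of each genotype, and the right panel the edgeR log2 fold change with its standard error for *Trps1* (red) and the 32 listed genes tested. *Trps1* lay at -0.34, below all but *Gli3*, *Zfpm2* and *Apcdd1*.

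The nuclei give what bulk RNAseq cannot, the level in each cell type. Summed over 29425 nuclei there were 63130 *Trps1* UMIs, and the level was expressed as UPM, with the UMIs of the same type and library as the total. Such levels compare 1 gene across types and are not scaled to length. The deposited annotation has 13 cell types, of which 10 had at least 10 nuclei and 3 *Trps1* UMIs in every library. Marker genes were in keeping with most labels. For example, the 4 mossy cell markers summed to 145 to 215 UPM in MC, and to at most 21.9 UPM in each other type labelled as CA1, CA2, CA3, GC or glia. Some lists also summed high outside their type. The astrocyte list reached 2415 to 4260 UPM in microglia, where the astrocyte gene *Aqp4* was at 0 to 27.5 UPM against 398 to 492 UPM in astrocytes. The inhibitory list reached 2176 to 3364 UPM in oligodendrocytes and 2684 to 2798 UPM in oligodendrocyte precursors. Among the clusters that make up the neuronal types, 3 had markers that went against the label. Clusters 14 and 15, labelled inhibitory, had *Gad1*, an enzyme that makes GABA, at 0 to 31.9 UPM, against 441 to 557 UPM in inhibitory cluster 12. Cluster 19, labelled excitatory, had *Slc17a7*, a vesicular glutamate transporter, at 0 to 98.9 UPM and the fibroblast collagen gene *Col1a2* at 134 to 357 UPM.

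Among the 10 types compared, *Trps1* was most abundant in the hilus and CA3. In mossy cells (MC), the excitatory neurons of the hilus, it stood at 2711 and 2163 UPM in the controls and 2181 and 1815 UPM in the mutants. In CA3 pyramidal neurons it stood at 1433 and 1044 UPM in the controls and 1056 and 766 UPM in the mutants. Astrocytes, with 1170 and 978 UPM in the controls and 928 and 1029 UPM in the mutants, overlapped CA3 and so had no separate rank. The next 3 types were oligodendrocyte precursors (OPC) with control levels of 328 and 326 UPM, inhibitory neurons with 353 and 285.5 UPM and oligodendrocytes with 307 and 202 UPM, and neighbours among them overlapped. CA2 followed at 132 and 133 UPM, apart from its neighbours. CA1 pyramidal neurons (58.7 and 44.4 UPM), the excitatory neurons outside the named fields (59.4 and 37.9 UPM) and dentate granule cells (GC, 48.8 and 36.5 UPM) formed the bottom of the order and overlapped each other. Hence the principal neurons of the hippocampus ranged from 2437 ± 387 UPM in MC to 42.7 ± 8.68 UPM in GC (means of the controls, SD, n = 2). The levels are of nuclei whose types were assigned from all genes, *Trps1* included.

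**Figure D2:**
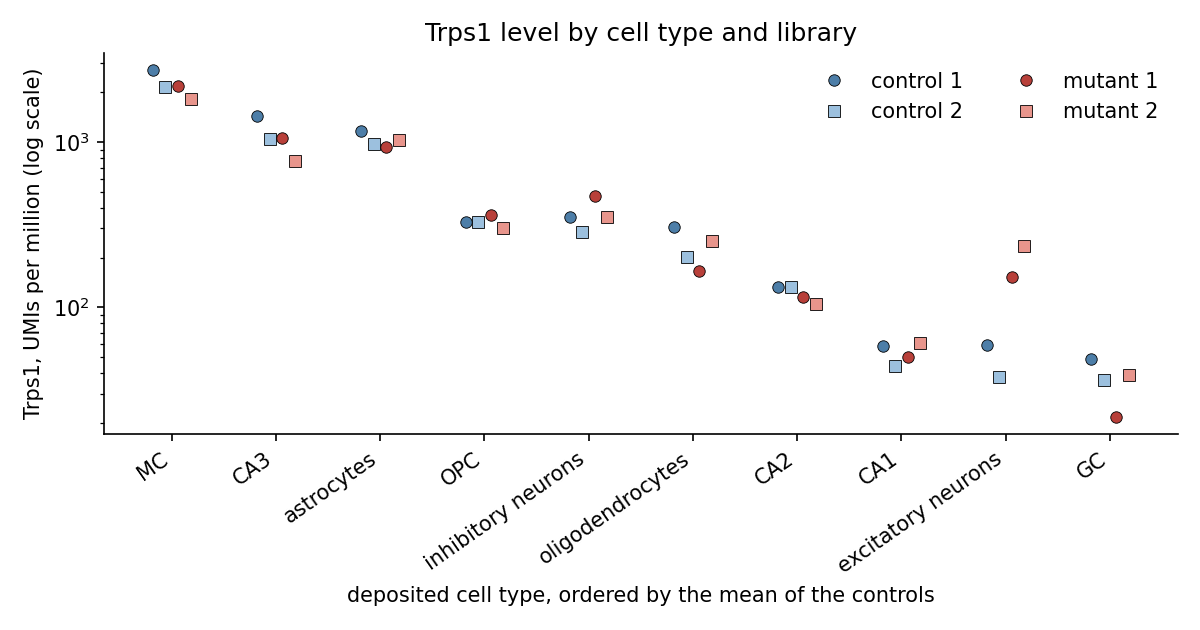
*Trps1* in each of 10 cell types and 4 snRNAseq libraries, in UPM on a log scale, with 1 point per library and types ordered by the mean of the controls. Excitatory neurons are the type with both mutant points (152 and 234) well above the control points (37.9 and 59.4).

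Over single nuclei the types differed in shape as well as level. Each MC nucleus had a *Trps1* UMI in all 4 libraries, with medians of 27, 32, 14 and 18 UMIs in control replicates 1 and 2 and mutant replicates 1 and 2. These medians are not scaled to depth, and the median depth of MC was 10392, 16645, 5560 and 9598 UMIs per nucleus in the same order. In GC, the neurons depleted in this mutant (2336 and 2007 control nuclei, 90 and 463 mutant nuclei), the median was 0 and 18.4%, 21.7%, 8.89% and 18.1% of nuclei had a UMI. Free RNA gives UMIs in nuclei that do not express a gene, and microglia served as the comparison. *Trps1* UMIs were found in 0 of 105 microglia of control replicate 1, which allows a share of up to 2.86%, in 3.48% and 3.61% of those of control replicate 2 and mutant replicate 2, and in 1 of 13 of mutant replicate 1. Microglia were shallower, with medians of 1632 to 2434 UMIs per nucleus against 4242 to 7688 in GC. After each nucleus was thinned to 1500 UMIs, GC had a share of 6.72%, 5.43%, 4.44% and 4.97%, and microglia 0%, 2.44%, 7.69% and 3.31%, in the same order of libraries. At equal depth GC thus lay a few percentage points above microglia in 3 libraries and below them in mutant replicate 1, which had 13 microglia. CA3 in contrast kept 79.9%, 69.5%, 63.8% and 58.4% after thinning and astrocytes 81.7%, 72.6%, 73.7% and 74.9%. Intervals and limits of this kind cover counting error only.

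Of the 10 types, excitatory neurons were the 1 type with both mutants above both controls, CA2 was the 1 type with both below, and 8 overlapped. For all genes at a mean of 10 UPM or more, such separation was found for 15.6% higher in excitatory neurons and 26.2% lower in CA2. In CA2 *Trps1* stood at 132 and 133 UPM in the controls and 116 and 106 UPM in the mutants, a ratio of the means of 0.836. In MC, CA3 and GC the ratios were 0.82, 0.736 and 0.71 with overlapping libraries, in OPC 1.02, in CA1 1.08 and in astrocytes 0.911. In CA3 the median depth was 10123 and 15193 UMIs per nucleus in the controls and 6790 and 11716 in the mutants. CA3 nuclei without any *Trps1* UMI numbered 1 of 467 and 22 of 558 in the controls and 29 of 365 and 82 of 1085 in the mutants. Nuclei with 20 or more UMIs numbered 137 and 223 in CA3 of the controls and 27 and 136 in the mutants. The thinned shares of CA3 nuclei with a UMI are given above, and how many other genes separate the genotypes in that measure was not computed.

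The excitatory neurons outside the named fields were the type whose contrast chose *Trps1*. *Trps1* stood at 59.4 and 37.9 UPM in the controls and 152 and 234 UPM in the mutants, from 225, 142, 1116 and 2149 UMIs. The means were 48.6 ± 15.2 and 193 ± 58.2 UPM (SD, n = 2), a ratio of 3.97. Of all genes at this level, 0.449% were higher without overlap at a ratio above 2, and nothing is read from that share because the choice of *Trps1* used this contrast. The share of nuclei with a *Trps1* UMI overlapped between genotypes. It was 19.8% and 22.2% in the controls (exact 95% intervals 16.8% to 23.0% and 18.3% to 26.4%) and 18.2% and 30.5% in the mutants (16.4% to 20.0% and 28.0% to 33.1%), so mutant replicate 1 lay below both controls. Depth differs among these libraries, with medians of 5150, 7884, 3478 and 6382 UMIs per excitatory nucleus. After thinning to 1500 UMIs the shares were 8.49% and 5.08% against 9.58% and 13.8%. The genotypes no longer overlapped, but 8.49% and 9.58% lay close. Thinning was a single random draw, and no interval was computed for these shares. How many other genes separate the genotypes in this measure was not computed. The difference was plainest in nuclei with many *Trps1* UMIs. Excitatory nuclei with 10 or more *Trps1* UMIs numbered 2 of 683 and 0 of 433 in the controls and 35 of 1837 and 75 of 1302 in the mutants. The tenth of nuclei with the most *Trps1* held 70.2% and 62.7% of its UMIs in the controls and 86.6% and 83.5% in the mutants.

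These nuclei lay almost entirely in 1 of the 5 deposited excitatory clusters. In cluster 10 *Trps1* stood at 124 and 30.5 UPM in the controls and 484 and 516 UPM in the mutants, a ratio of the means of 6.45 and a log2 ratio of 2.69. Leaving out control replicate 1 gave a log2 ratio of 4.03, and leaving out control replicate 2 gave 2.01. Both mutants were far above both controls, and the controls themselves differed widely. Across genes at this level in cluster 10, 17.1% were higher without overlap and 2.05% were so at a ratio above 2. Cluster 7 also had both mutants above both controls (24.6 and 30.1 against 43.0 and 35.1 UPM, a ratio of 1.43), as had 13.3% of genes there. Clusters 8, 13 and 19 overlapped, with ratios of 1.04, 1.14 and 0.767. Without cluster 10 the excitatory level was 45.7 and 39.0 UPM in the controls and 53.0 and 51.9 UPM in the mutants.

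Cluster 10 also took a larger share of the excitatory nuclei in the mutants. It held 10.8% and 9.24% of them in the controls and 15.6% and 28.3% in the mutants. Its share of the excitatory *Trps1* UMIs was 36.4% and 11.3% in the controls and 73.1% and 86.6% in the mutants. When every library was given the same cluster shares, the levels were 66.4 and 37.8 UPM in the controls and 153 and 158 UPM in the mutants. When every library kept its own shares but was given the mean control level of each cluster, the values were 48.2 and 49.3 UPM against 50.4 and 60.3 UPM. These sums describe the contrast that chose *Trps1*, with clusters built from all genes, and do not tell a change in level within a cell type from a change in the makeup of cluster 10.

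**Figure D3:**
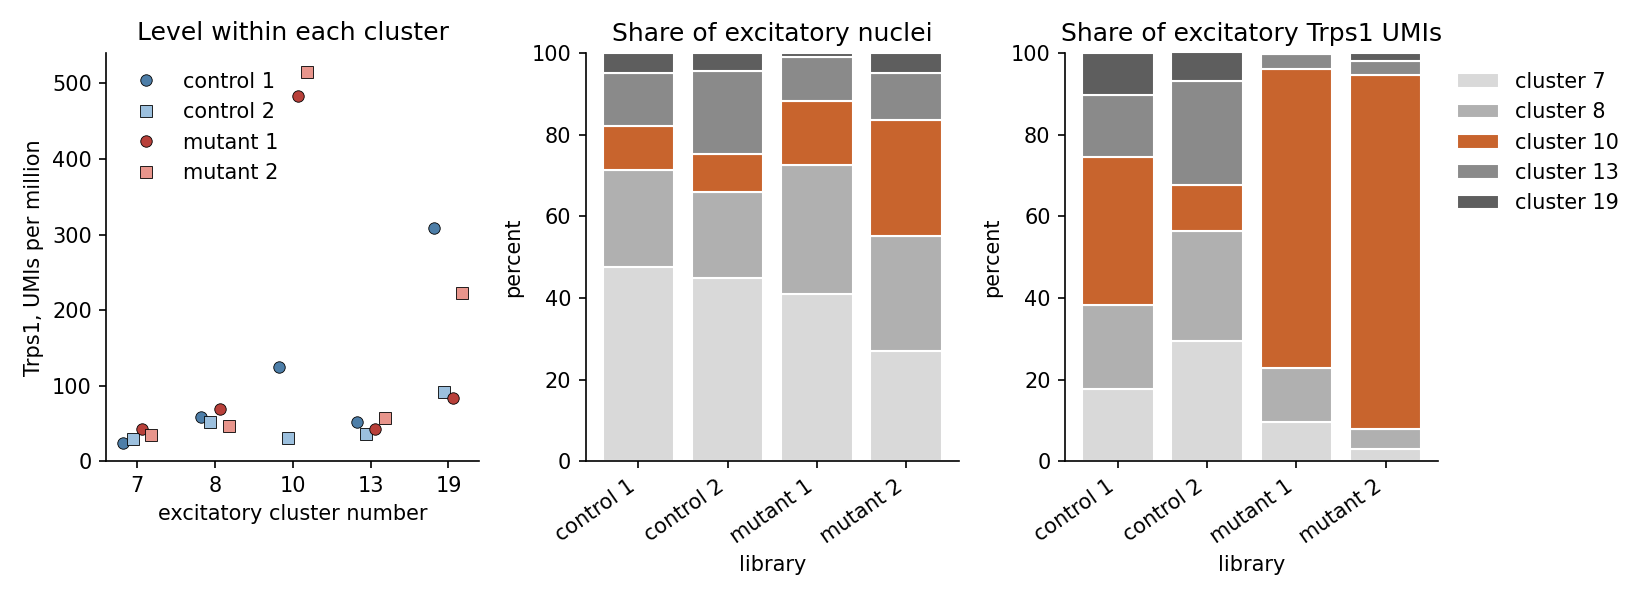
The 5 excitatory clusters in each snRNAseq library. The left panel gives the *Trps1* level in UPM with 1 point per library, the middle panel the percent of excitatory nuclei in each cluster and the right panel the percent of excitatory *Trps1* UMIs. Cluster 10 (orange) holds 9.24% to 28.3% of nuclei and, in the mutants, 73.1% and 86.6% of the UMIs.

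Within cluster 10 the nuclei were uneven, with many at 0 UMIs beside a tail of rich nuclei. In the mutants 164 of 286 and 162 of 368 nuclei had 0 UMIs, while 47 and 104 had 5 or more, with a maximum of 48 and 57. In the controls 49 of 74 and 31 of 40 had 0, while 3 and 0 had 5 or more. Those 3 nuclei bear much of the level of control replicate 1, in which 24 of 82 UMIs came from a single nucleus. The variance over the mean was 10.9 and 1.9 in the controls and reached 14.8 in mutant replicate 2. By comparison, in CA3, where nearly every nucleus expressed *Trps1*, it was 5.46 to 8.91. Nuclei with 5 or more UMIs were 4.05% of cluster 10 in control replicate 1 (exact 95% interval 0.844% to 11.4%) and 0 of 40 in control replicate 2, which allows a share of up to 7.5% by the limit of 3 counts and 8.81% by the exact interval. In the mutants they were 16.4% (12.3% to 21.2%) and 28.3% (23.7% to 33.2%).

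**Figure D4:**
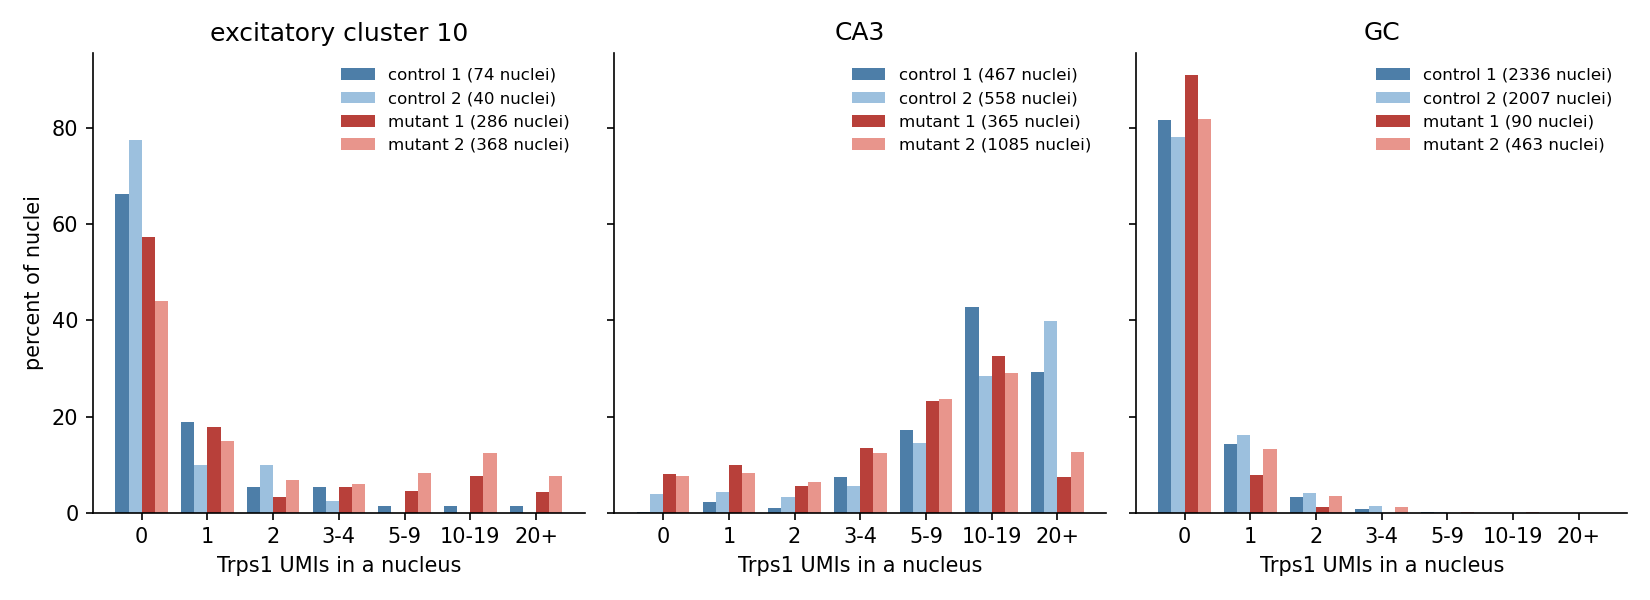
*Trps1* UMIs per nucleus in excitatory cluster 10, CA3 and GC, as the percent of the nuclei of each library in each class of UMI count. In cluster 10 the mutants have nuclei with 5 or more UMIs (47 of 286 and 104 of 368) beside many with 0. In CA3 most nuclei of each library have 3 or more UMIs, and in GC most have 0.

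Of 18 marker lists read beside the level in cluster 10, 4 had a lower sum in both mutants than in both controls and 7 a higher one. Of single genes at a mean of 10 UPM or more in this cluster, 23.2% were lower and 17.1% higher without overlap. Some genes are shared between lists, among them *Reln* and *Lef1* below, so the lists are not separate counts. The 6 glutamatergic markers were each found in every library and summed to 520 and 595 UPM in the controls and 439 and 429 UPM in the mutants. The 6 inhibitory markers summed to 66.8 and 80.1 against 119 and 157 UPM, with *Gad1* at 7.63 to 10.6 UPM throughout. The astrocyte list summed to 94.1 and 118 against 48.0 and 54.6 UPM, and the granule cell list to 65.2 and 72.5 against 37.4 and 41.9 UPM. The CA2 list, the last of the lower ones, summed to 22.8 and 32.4 against 17.2 and 18.9 UPM. The thalamus list summed to 1278 and 1128 against 1511 and 1470 UPM, the CA1 list to 299 and 330 against 334.5 and 440.0 UPM, and the microglia list to 34.9 and 45.8 against 51.6 and 69.9 UPM. The mossy cell list was at 1.52 and 1.91 against 3.56 and 6.10 UPM, with none of its genes found in every library. The fibroblast list stood apart in control replicate 2, at 277 UPM against 48.6 to 78.7 UPM in the rest. The subiculum list, led by the axon guidance receptor gene *Dcc*, summed to 5025 and 3547 against 4565 and 4333 UPM and overlapped. The entorhinal and retrosplenial list, all 5 genes of which were found in every library, summed to 1440 and 956 against 1525 and 1920 UPM. Its genes did not share 1 direction. *Tshz2* made up most of the sum and overlapped, at 1290 and 889 against 1120 and 1550 UPM. *Cbln1* was lower in the mutants (9.1 and 7.63 against 4.74 and 6.1 UPM) and *Etv1* higher (53.1 and 49.6 against 151 and 75.7 UPM). The Cajal-Retzius list, of which 3 of 4 genes were found in every library, summed to 50.1 and 17.2 against 202 and 246 UPM. The gene that carried this last list was *Reln*, a secreted protein that guides neuronal layering, at 45.5 and 5.72 UPM in the controls and 193 and 234 UPM in the mutants. *Reln* thus moved with *Trps1* across the libraries of cluster 10. *Lef1*, a nuclear effector of Wnt signalling, stood at 39.5 and 3.82 against 58.7 and 57.4 UPM, with control replicate 2 apart from the rest. *Slc17a7* did not separate the genotypes (223, 317, 215 and 230 UPM). The part of any of these differences in the level of *Trps1* was not tested.

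The rich nuclei of cluster 10 in the mutants also carried other transcripts. The 10 genes that follow were chosen after their values were seen, for their difference between mutant nuclei with 3 or more *Trps1* UMIs (62 and 126 nuclei) and those with 0 (164 and 162), so that the values describe these nuclei only. *Fign*, which encodes a microtubule-severing protein, stood at 133 and 102 UPM in the rich nuclei of mutant replicates 1 and 2 and at 2.27 and 2.81 UPM in those with 0. *Angpt1*, the vessel growth factor angiopoietin-1, stood at 203 and 69.9 against 3.41 and 9.13 UPM. The synaptic vesicle protein gene *Synpr* stood at 170 and 174 against 32.9 and 39.3 UPM. *Nkain3*, *Ptpro*, *Kcnk2*, *Calb1*, *Ndst4*, *Chst9* and *Gm48749* made up the rest, with ratios of 3.66 to 8.11. *Reln* was 3.11 and 3.65 times as high in the rich nuclei, and it was also higher in mutant nuclei without *Trps1* (102 and 94.8 UPM) than in control nuclei without it (35.6 and 5.09 UPM). *Slc17a7* had ratios of 0.853 and 1.05. Rich nuclei were deeper, with medians of 6963 and 10954 UMIs against 4910 and 8595 in nuclei with 0, and the levels above are scaled to total UMIs. In the controls only 7 and 1 nuclei had 3 or more *Trps1* UMIs, too few to compare. *Fign* and *Chst9* stood at 0 UPM in them. *Synpr* stood at 80.1 and 249 UPM in them against 61.7 and 43.2 UPM in control nuclei with 0. *Calb1* went the other way, at 13.4 and 0 against 16.6 and 40.7 UPM. *Nkain3* was mixed, at 53.4 and 83.0 against 64.0 and 30.5 UPM. Among the 10 genes the direction in the controls was thus mixed, and the values of control replicate 2 rest on 1 nucleus.

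**Figure D5:**
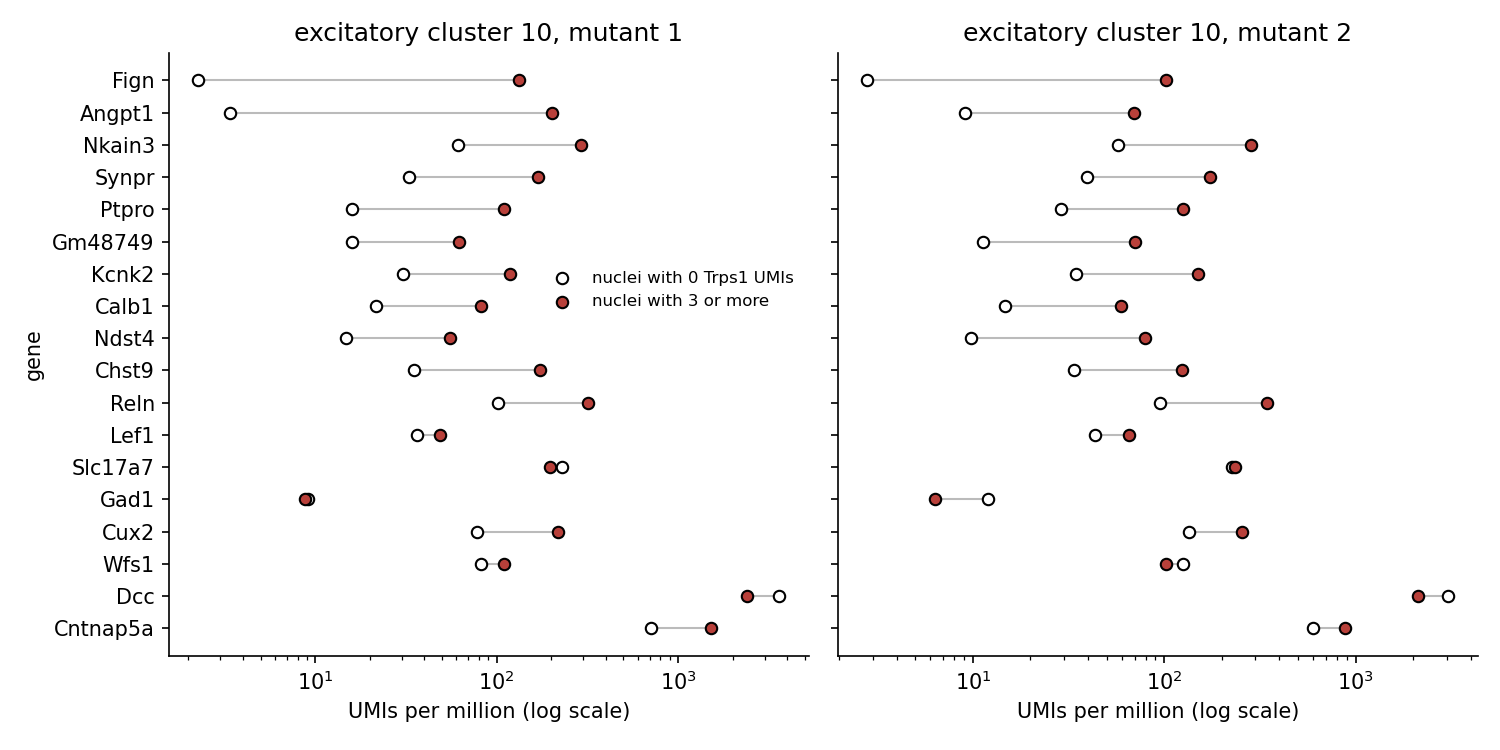
Levels of 18 genes in excitatory cluster 10 of each mutant library, in UPM on a log scale, for nuclei with 0 *Trps1* UMIs (open) and with 3 or more (red). *Fign* stood at 133 and 102 UPM in the nuclei with 3 or more and at 2.27 and 2.81 UPM in those with 0, while *Slc17a7* had ratios of 0.853 and 1.05.

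Over all excitatory nuclei of all 4 libraries, 6 genes were named by the highest value of their lowest ratio among the libraries, in nuclei with 3 or more *Trps1* UMIs (16, 11, 79 and 144 nuclei) over those with 0. Cluster 10 held 7 of 16 and 1 of 11 of the nuclei with 3 or more in the controls and 62 of 79 and 126 of 144 in the mutants, but 49 of 548, 31 of 337, 164 of 1503 and 162 of 905 of those with 0, so the ratios also set clusters against each other. The 6 were the receptor phosphatase genes *Ptprz1* (ratios of 3.3 to 3.45) and *Ptprg* (1.83 to 2.92), the glypican gene *Gpc5* (2.57 to 18.1), *Zfp608* (2.35 to 2.45), *Lix1* (2.21 to 4.15) and the kinase gene *Dgkb* (1.8 to 2.41). The ratio of *Gpc5* varied most, and those of *Ptprz1* and *Zfp608* least, among the libraries.

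*Cntnap5a*, a neurexin family adhesion gene and the other gene the study names for excitatory neurons, was more widespread in cluster 10 than *Trps1*. It stood at 610 and 590 UPM in the controls and 929 and 701 UPM in the mutants there. Of the mutant nuclei with 5 or more *Trps1* UMIs, 46 of 47 and 98 of 104 had *Cntnap5a*, but so had 72.0% and 79.0% of those with 0. Over all excitatory neurons it stood at 139 and 141 against 298 and 331 UPM. In bulk RNAseq it was lower in the mutants, at 6.94 and 7.43 TPM in the controls and 3.16 and 3.02 TPM in the mutants (log2 fold change -1.13, SE 0.0891, edgeR FDR 0.0206), and did not reach a fold of 3. For both genes, then, the bulk level was lower and the excitatory level higher in the mutants. The study named both for their difference in excitatory neurons, so their shared excitatory direction is no separate result. Separation without overlap was found for 15.6% of genes on the higher side in excitatory neurons and 25.4% on the lower side in bulk. In bulk *Trps1* had an edgeR FDR of 0.135. The genes differed in GC, the depleted type. Control GC held *Cntnap5a* at 1120 and 983 UPM and *Trps1* at 48.8 and 36.5 UPM. The part of GC loss in either bulk level was not tested.

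Among inhibitory neurons *Trps1* was uneven. Cluster 12 stood at 924 and 820 UPM in the controls and 770 and 640 UPM in the mutants, with both mutants below both controls (ratio 0.809), as were 22.8% of genes in that cluster. Clusters 5 and 18 stood far lower, at 195.5 and 148 against 187 and 189 UPM and at 202 and 126 against 188 and 171 UPM. Of the clusters whose markers go against the label, cluster 14 stood at 413.5 and 251.5 against 271 and 419 UPM. Cluster 15 was rich in *Trps1*, at 1367 UPM in control replicate 1 and 1622 and 1312 UPM in the mutants. CA3 of the same libraries stood at 1433, 1056 and 766 UPM. In control replicate 2 the only nucleus of cluster 15 gave 1894 UPM. It had 15 and 1 nuclei in the controls and 143 and 102 in the mutants, of which 111 and 93 had 5 or more *Trps1* UMIs. It also held *Cntnap5a* at 2976 UPM in control replicate 1 and 3995 and 3501 UPM in the mutants. For the whole inhibitory type the levels were 353 and 285.5 against 473 and 352 UPM, a log2 ratio of 0.37, and it became -0.17 without clusters 14 and 15, a choice made after their markers were seen.

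Across 17 deposited clusters of the control libraries, 12031 genes were ranked by the likeness of their level to that of *Trps1*, as Pearson's r of log2(UPM + 1). The closest were *Edf1* (0.842), a transcriptional coactivator, *Acyp2* (0.837), *Nectin3* (0.819), an adhesion gene used as a CA3 marker, *Gm47710* (0.816), *Tpmt* (0.789), *Lyrm4* (0.775), *Sumf2* (0.77) and *Kyat1* (0.762). The clusters share 2 libraries, so r is a description across clusters. In the mutants the same 8 genes had r of 0.332 to 0.642. They were picked for a high r in the controls, so a lower r in other libraries can follow from that choice alone. No change between genotypes is read from it.

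Summed over all nuclei, *Trps1* stood at 334.5 and 281 UPM in the controls and 302 and 325 UPM in the mutants and overlapped, in contrast to the bulk libraries. The sources of its UMIs differed. CA3 gave 55.9% and 55.7% of them in the controls and 39.1% and 42.2% in the mutants. Excitatory neurons gave 1.73% and 0.82% against 14.1% and 8.65%, and inhibitory neurons 10.9% and 11.1% against 29.5% and 18.2%. The inhibitory share includes clusters 14 and 15, whose markers go against the label. Cluster 15 gave 1.43% and 0.202% against 16.0% and 4.53%, and cluster 14 gave 0.744% and 0.728% against 0.529% and 1.44%. Over the same libraries GC were 36.1% and 27.9% of nuclei in the controls and 1.7% and 4.43% in the mutants, while excitatory neurons were 10.6% and 6.02% against 34.6% and 12.4% of nuclei. The part of these shares in the level over all nuclei was not tested.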

How the data were processed

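*Trps1* and the gene lists were chosen with earlier results of these data known. Bulk reads were mapped to mm10 by the authors with RSEM 1.3.0 and Bowtie2 2.2.9, and expected counts and TPM per gene were deposited. The authors also deposited a signal matrix, in which each library's expected counts are divided by its size factor. Nuclei were counted by the authors with Cell Ranger 3.1.0 on a pre-mRNA index, who deposited UMI counts per nucleus, with cell types, clusters and a size factor ratio for each nucleus, after batch correction in Monocle 3. Retained nuclei had at least 1500 UMIs. Doublet removal is not given in the sources used here.

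Expected counts were rounded and tested with edgeR 4.0.16 (quasi-likelihood, filterByExpr, TMM) in R 4.3.3. limma 3.58.1 and DESeq2 1.42.0 were alternatives. EBSeq and Monocle regression, used in the study, were not run here. UMIs were summed per library and type or cluster in Python 3.11.15. Genotypes were compared for types with at least 10 nuclei in each library. With the nuclei used to choose *Trps1*, no test was made.

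The genes named are *Trps1*, *Cntnap5a*, *Wls*, *Xist*, *Ddx3y*, the 8 most alike over clusters of at least 20 control nuclei with 20 UPM in 1 cluster or more, the 6 in rich excitatory nuclei (at least 50 UPM there), neighbours within 2 Mb, list members called or at 1 TPM or more in every library, and markers. *Wif1* and the genes of rich cluster 10 nuclei fell outside it and were chosen after their values were seen. Gene positions came from gencode vM21 (GRCm38, the same build as mm10). The replicate number was not a block in the edgeR fit as reported. Differences between same-genotype bulk libraries had r = 0.021 between the genotypes over 20687 genes. *Xist* and *Ddx3y* nevertheless followed the replicate number in both genotypes, so a pairing carried by few genes is not excluded.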

Additional observations from a re-analysis of the deposited data

Results flagged for a closer look

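The level of *Trps1* in nuclei separated the genotypes, untested, in 5 populations. Both mutants lay above both controls in excitatory neurons (ratio of means 3.97), in excitatory cluster 10 (6.45, with a log2 ratio of 2.69 that moved to 4.03 on leaving out control replicate 1 and to 2.01 on leaving out control replicate 2) and in excitatory cluster 7 (1.43). Both lay below in CA2 (0.836) and in inhibitory cluster 12 (0.809). The direction thus differed between excitatory clusters 7 and 10 and the pair of CA2 and inhibitory cluster 12, and this difference was not tested. With 2 libraries a genotype, separation of this kind was common across genes, for 15.6%, 17.1% and 13.3% of genes on the higher side and 26.2% and 22.8% on the lower side in the same populations.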

How the results depend on the processing

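In bulk RNAseq the log2 fold change of *Trps1* stayed between -0.35 and -0.34 with RLE scaling, no filter, the deposited matrix in limma, DESeq2 and the replicate block, and between -0.45 and -0.24 with 1 library left out. A fold of 3 was reached in none of these, but the FDR was 0.0229 in DESeq2, 0.012 without the filter and 0.0079 without mutant replicate 1, against 0.135 in the edgeR fit as reported. With the replicate block it was -0.34 (FDR 0.136). No label says that a replicate number marks a shared litter or day, but in bulk it coincides with the *Xist* and *Ddx3y* pattern, so that the block is also a block on that pattern. It left 24 genes lower and 2 higher against 41 and 4. DESeq2 called 56 lower and 69 higher. The number of list members called was 0 in every alternative.

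In nuclei the excitatory log2 ratio of 1.99 kept its direction in all 12 alternatives, 1.64 to 2.35 with 1 library left out, and was 0.31 without cluster 10. In cluster 10 alone it ran from 2.01 to 4.03 with 1 library left out. The share of excitatory nuclei with a UMI was 3.37 percentage points higher in the mutants and turned to -3.04 without cluster 10 and to -2.79 without mutant replicate 2, with 9.52 the highest on leaving out a library. The inhibitory log2 ratio of 0.37 became -0.17 without clusters 14 and 15. Removing nuclei with 2 UMIs of another class's markers took out 12.3% to 33.2% of nuclei, and how many of these are doublets was not tested. The number of nuclei limits cluster 10 of the controls, with 74 and 40.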
